A study of Mus musculus with 6 samples.

Results

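The genes described here mark the epithelium of the nephron, the tubule and filter unit of the kidney, and were followed in endothelial cells (ECs) that had been sorted away from that epithelium. They are 39 genes of the 55401 in the deposited count table, taken by name from a list that was drawn up with earlier results of these data known: 4 of podocytes, 14 of the proximal tubule, 4 of the loop of Henle, 6 of the distal tubule, 9 of the collecting duct and 2 expressed by epithelium along most of the tubule. Kidney ECs were purified as CD31+CD45- cells with magnetic beads and a cell sorter from control mice (CTRL, genotype Cre -/-; Rbpjf/f) and mice labelled RbpjΔEC (genotype Cre +/-; Rbpjf/f), and their bulk RNA was sequenced in 3 libraries per group. All of these mice carried the floxed Rbpj alleles and all received tamoxifen in 5 doses of 1.5 mg at 8 weeks of age, with harvest 12 weeks later and a labelled age of 21 weeks. The inducible Cre was driven by the endothelial Cdh5 promoter, so that Rbpj, the transcription factor of canonical Notch signaling, was targeted in ECs, and the nephron epithelium was not a target of the deletion.

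In the nephron, podocytes wrap the glomerular capillaries and hold the filtration slits. The proximal tubule then takes back glucose, phosphate, amino acids, organic acids and filtered protein, the thick ascending limb of the loop of Henle takes back salt without water, the distal convoluted tubule and connecting tubule adjust sodium and calcium, and the collecting duct sets final water, potassium and acid excretion through its principal and intercalated cells. Each segment makes its own transporters, which is why such genes serve as markers. In bulk RNA fewer cells of a type and less RNA per cell cannot be told apart.

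The libraries held between 39649171 and 47726850 counts assigned to genes, so that 3 counts corresponded to 0.0634 to 0.0749 counts per 1000000 counts (CPM). Levels are given as CPM after scaling of the library sizes by trimmed mean of M-values (TMM), and the libraries of a group are biological replicates. Rbpj itself averaged 29.2 ± 0.964 CPM in CTRL and 28.2 ± 1.87 CPM in those labelled RbpjΔEC (± SD, n = 3 each). This whole-gene count sums deleted and kept exons and so does not check the genotype. Hey1, a Notch target picked for this check with its values known, averaged 19.7 ± 2.93 CPM in CTRL and 11.7 ± 2.83 CPM in those labelled RbpjΔEC (± SD, n = 3 each), without overlap (edgeR, adjusted p = 0.0722). CTRL 1 had counts on 33764 genes and the 5 other libraries on 25629 to 26785. The sorted cells carried the endothelial identity their label gives: 14 pan-endothelial genes summed to between 27310 and 30130 CPM in CTRL and between 24950 and 25130 CPM in the libraries labelled RbpjΔEC, and 0 of the 14 passed the test (edgeR, adjusted p under 0.05) while 5 had a lower and 1 a higher level with an unadjusted p under 0.05.

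All 39 genes had counts in every library, 37 passed the filter on low counts, and Cldn16 and Trpv5 did not. Scnn1g, Hsd11b2 and S100g, 3 genes of the distal tubule and collecting duct, were lower in the libraries labelled RbpjΔEC past the adjusted threshold of 0.05, beside 0.559% of all 18438 tested genes that were lower at that threshold. No member was higher at that threshold (0 of 37, beside 0.575% of all genes), while at an unadjusted p under 0.05 there were 16 lower (8.62% of all genes) and 1 higher (8.88%). The groups did not overlap for 16 of the 39 in the lower direction and for 1, Slc5a2, in the higher direction, where 11.6% and 11.4% of all tested genes did so. The median log2 fold change was -0.98 over the 37 tested members and 0.01 over all tested genes.

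By segment, all 17 tested members of the loop, distal tubule and collecting duct had a negative log2 fold change, of which 3 passed the adjusted test (0 in the loop, 2 in the distal tubule and 1 in the collecting duct), and 4 of the 19 overlapped between the groups. Of the 14 proximal tubule members 13 had a positive log2 fold change and 0 passed. Summed over the 19 loop, distal and collecting duct members, CTRL 1 to 3 had 486.2, 288.3 and 258.5 CPM and RbpjΔEC 1 to 3 had 123.4, 60.8 and 190.9 CPM. Every CTRL library lay above every library labelled RbpjΔEC, and the CTRL mean was 2.75 times higher. Slc12a3, Slc12a1 and Umod carried most of this sum, with CTRL means of 103.5, 90.1 and 76.9 CPM within a mean of 344.3 CPM. None of these 3 genes passed the adjusted test. Summed over the 14 proximal tubule members, CTRL 1 to 3 had 60.7, 99.1 and 164.5 CPM and RbpjΔEC 1 to 3 had 109.3, 122.0 and 441.2 CPM. These groups overlapped, and RbpjΔEC 3 stood well above the 5 other libraries.

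**Figure D1:**
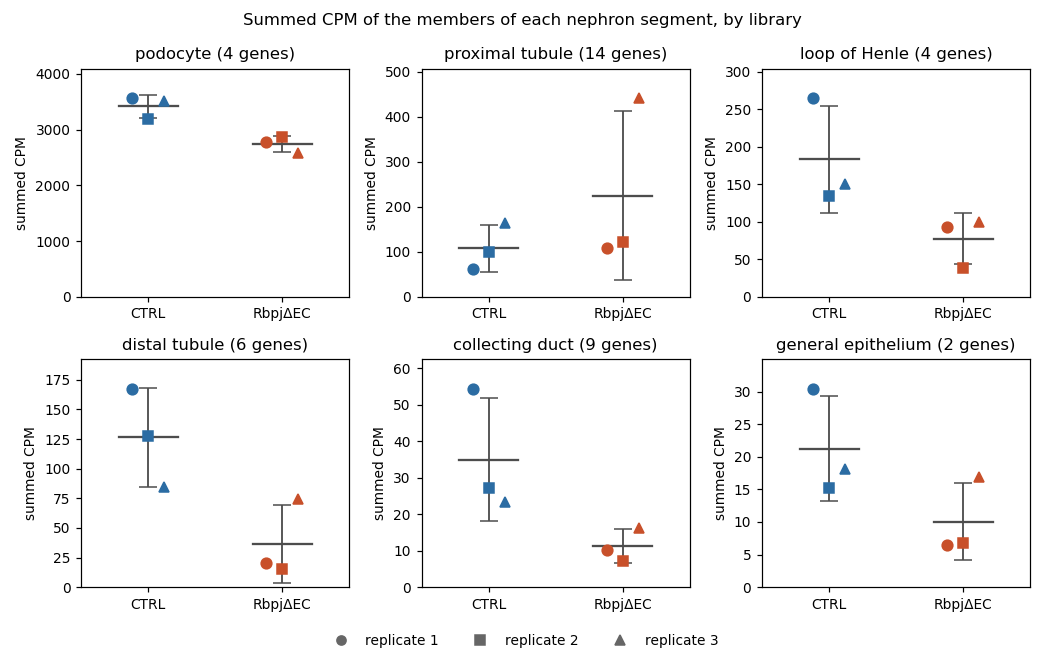
Summed CPM (y axis, linear from 0) of the members of each nephron segment in the 3 CTRL libraries (blue) and the 3 libraries labelled RbpjΔEC (orange). Marker shapes give the replicate number, the long bar is the mean and the whiskers are 1 SD (n = 3). The podocyte, loop, distal tubule and collecting duct sums do not overlap between the groups, and the proximal tubule sum is highest in RbpjΔEC 3 at 441.2 CPM.

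The podocyte sum was almost wholly Podxl and Synpo. Podxl encodes podocalyxin, a sialomucin of the podocyte surface that vascular endothelium carries as well. Its level was 3378, 2984 and 3335 CPM in CTRL 1 to 3 and 2556, 2680 and 2399 CPM in RbpjΔEC 1 to 3. The groups did not overlap, the log2 fold change was -0.35 ± 0.082 (SE, n = 3 per group), and the test was not passed (edgeR, adjusted p = 0.0678). It was passed with DESeq2 (adjusted p = 0.00379), without a low-count filter (edgeR, adjusted p = 0.000197) and without CTRL 2 (edgeR, adjusted p = 0.0277). On leaving out single libraries the adjusted p of Podxl ranged up to 0.231 (edgeR), with log2 fold changes of -0.41 to -0.30. Set per kilobase of exonic sequence, the scale on which levels of single genes are compared here, Podxl stood at 589 CPM per kb in CTRL and was the most abundant member. Synpo, which encodes the actin-associated protein synaptopodin, averaged 183.5 ± 10.8 CPM in CTRL and 192.9 ± 19.7 CPM in those labelled RbpjΔEC (± SD, n = 3 each), closer together than the replicates were spread (log2 fold change 0.07, edgeR, adjusted p = 0.694).

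The podocyte genes that ECs are not known for were near the lower end. Nphs1 encodes nephrin, the backbone of the slit diaphragm. It had 1.67, 1.39 and 2.98 CPM in CTRL 1 to 3 and 0.692, 0.334 and 2.42 CPM in RbpjΔEC 1 to 3, with overlapping groups and a log2 fold change of -0.82 ± 0.675 (SE, n = 3 per group, edgeR, adjusted p = 0.58). Wt1, a transcription factor of podocytes, averaged 1.13 ± 0.548 CPM in CTRL and 0.716 ± 0.482 CPM in those labelled RbpjΔEC (± SD, n = 3 each) (edgeR, adjusted p = 0.542). Per length, Nphs1 stood at 0.305 CPM per kb in CTRL and 0.173 CPM per kb in the libraries labelled RbpjΔEC, far below Podxl. Without RbpjΔEC 3, Nphs1 was lower past the threshold (log2 fold change -1.96, edgeR, adjusted p = 0.0474). This was the far end of the range on leaving out single libraries, which ran to -0.38 (edgeR, adjusted p up to 0.852). Podxl and Synpo thus stood apart in level from the other podocyte members, and without them the podocyte sum averaged 3.15 ± 1.39 CPM in CTRL and 1.87 ± 1.6 CPM in those labelled RbpjΔEC (± SD, n = 3 each). Of 12 further podocyte genes, 1 passed the test, Thsd7a, which was lower (log2 fold change -0.41, edgeR, adjusted p = 0.0475) at 122.3 CPM in CTRL.

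Most proximal tubule members varied alike from library to library. All 14 were highest in RbpjΔEC 3, and 11 of 14 were lowest in CTRL 1. Relative to the mean of RbpjΔEC 1 and 2, RbpjΔEC 3 was higher by between 1.77 times (Slc7a13) and 6.3 times (Slc5a12), with a median of 3.97. Relative to the mean of CTRL 2 and 3, CTRL 1 stood at between 0.284 (Slc13a3) and 0.852 (Ass1). Of the 14, 13 had a positive log2 fold change and 0 passed the test. An unadjusted p under 0.05 was reached by 1 gene, Slc5a2, which was higher, beside 8.88% of all tested genes. Summed, the proximal members gave a log2 ratio of 1.05 between the group means, 0.10 without RbpjΔEC 3 and -0.19 without RbpjΔEC 3 and CTRL 1.

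Among the endocytic receptors, Lrp2 encodes megalin, which takes up filtered protein. Its level was 13.7, 23.3 and 40.4 CPM in CTRL 1 to 3 and 29.2, 29.0 and 129.2 CPM in RbpjΔEC 1 to 3. Its partner Cubn, which encodes cubilin, had 4.69, 5.54 and 7.48 CPM in CTRL and 5.49, 7.56 and 21.9 CPM in the libraries labelled RbpjΔEC. For both genes RbpjΔEC 1 lay inside the CTRL range, and the log2 fold changes of 1.27 ± 0.859 for Lrp2 and 0.98 ± 0.601 for Cubn (SE, n = 3 per group) did not pass the test (edgeR, adjusted p = 0.523 and 0.473).

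Of the sodium-coupled transporters, Slc5a2, the glucose carrier of the early proximal tubule, was the only member of the 39 whose groups did not overlap in the higher direction. It had 1.32, 2.43 and 2.75 CPM in CTRL 1 to 3 and 3.08, 2.98 and 9.21 CPM in RbpjΔEC 1 to 3. RbpjΔEC 3 was 3.04 times the mean of RbpjΔEC 1 and 2. The log2 fold change of Slc5a2, 1.23 ± 0.511 (SE, n = 3 per group), did not pass the test (edgeR, adjusted p = 0.276). On leaving out single libraries it ranged from 0.48 to 1.5 (edgeR, adjusted p from 0.231 to 0.564). It passed without a low-count filter (edgeR, adjusted p = 0.000516), a setting that called 1436 genes against 209 in the main test. The phosphate cotransporter gene Slc34a1 averaged 15.1 ± 8.03 CPM in CTRL and 36.7 ± 31.9 CPM in those labelled RbpjΔEC (± SD, n = 3 each), where RbpjΔEC 3 had 73.5 CPM and RbpjΔEC 1 and 2, at 17.1 and 19.5 CPM, lay within the CTRL range. Slc5a12, which carries lactate, averaged 2.04 ± 0.715 CPM in CTRL and 5.22 ± 5.8 CPM in those labelled RbpjΔEC (± SD, n = 3 each), of which RbpjΔEC 3 held 11.9 CPM. Slc13a3, which carries dicarboxylates, averaged 2.21 ± 1.39 CPM in CTRL and 4.73 ± 4.57 CPM in those labelled RbpjΔEC (± SD, n = 3 each). Both turned sign without RbpjΔEC 3, to log2 fold changes of -0.12 and -0.051.

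The organic anion transporters of the basolateral membrane, Slc22a6 and Slc22a8, showed the same spread. Slc22a6 had 1.07, 1.92 and 5.02 CPM in CTRL 1 to 3 and 2.14, 3.24 and 14.9 CPM in RbpjΔEC 1 to 3. Slc22a8 had 0.773, 1.33 and 2.98 CPM in CTRL and 1.74, 2.03 and 8.81 CPM in the libraries labelled RbpjΔEC. In both, CTRL 3 lay above RbpjΔEC 1 and 2, and neither passed the test (edgeR, adjusted p = 0.575 and 0.496). Slc27a2, which activates and imports fatty acids, averaged 11.8 ± 8.71 CPM in CTRL and 25.3 ± 21.6 CPM in those labelled RbpjΔEC (± SD, n = 3 each). Slc7a13, an amino acid carrier of the straight segment, had the smallest SE of the carriers, with a log2 fold change of 0.63 ± 0.373 (SE, n = 3 per group, edgeR, adjusted p = 0.409).

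Kap, the kidney androgen-regulated protein, was the most abundant proximal member per length at 23.2 CPM per kb in CTRL and 46.1 CPM per kb in the libraries labelled RbpjΔEC. It had 7.81, 13.7 and 27.8 CPM in CTRL 1 to 3 and 15.1, 21.1 and 61.7 CPM in RbpjΔEC 1 to 3. Miox, which breaks down myo-inositol, had 1.90, 3.46 and 5.47 CPM in CTRL and 3.68, 3.84 and 17.8 CPM in the libraries labelled RbpjΔEC. Both overlapped between the groups (edgeR, adjusted p = 0.596 and 0.523). The enzymes Gatm, of creatine synthesis, and Ass1, of arginine synthesis, stood apart from the 12 other proximal members by their small differences: the log2 fold change was -0.03 ± 0.398 for Gatm and 0.14 ± 0.332 for Ass1 (SE, n = 3 per group). Both were lowest in RbpjΔEC 2, where no other proximal member was lowest.

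Promoters of proximal and downstream members are shown so that regulatory sequence of both kinds can be set side by side, beginning with Kap and Slc22a6. They are the 250 bases before the gene start as RefSeq gives it on GRCm38.p6, written 5′ to 3′ on the strand of the gene, and capitals mark a match to a searched motif on either strand. Kap lies on the minus strand (chr6:133853668-133853917) and Slc22a6 on the plus strand (chr19:8617746-8617995).
Kap: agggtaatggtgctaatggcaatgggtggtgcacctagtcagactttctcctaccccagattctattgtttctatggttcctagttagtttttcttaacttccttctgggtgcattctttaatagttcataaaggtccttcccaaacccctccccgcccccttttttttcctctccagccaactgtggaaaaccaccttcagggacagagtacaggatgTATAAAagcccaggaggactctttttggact
Slc22a6: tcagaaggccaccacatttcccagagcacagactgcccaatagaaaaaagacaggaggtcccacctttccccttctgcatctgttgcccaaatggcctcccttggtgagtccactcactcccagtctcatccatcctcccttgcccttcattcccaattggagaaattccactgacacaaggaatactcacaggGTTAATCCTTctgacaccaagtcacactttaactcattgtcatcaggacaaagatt
The capitals in Kap are TATAAA, the TATA box, from -31 to -26 before the start, a sequence found within 300 bases around the start in 13.6% of all 32851 RefSeq promoters and in 3 of the 11 proximal tubule promoters given. The capitals in Slc22a6 are a core of the binding sequence of the HNF1 factors, from -56 to -47, found in 1.03% of all promoters and in this member alone. Neither CAAAGTCCA, a core bound by HNF4, nor TCAAGGTCA, a sequence bound by estrogen-related receptors, was found in a member's promoter in these windows, and they occur in 0.475% and 0.423% of all promoters.

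In the loop of Henle, the 3 tested members were lower without overlap between the groups, beside 11.6% of all tested genes. Of these members 0 passed the test, with 2 lower at an unadjusted p under 0.05, beside 8.62% of all tested genes. Umod encodes uromodulin, the most abundant protein of normal urine. It had 106.2, 56.0 and 68.4 CPM in CTRL 1 to 3 and 42.7, 18.3 and 39.9 CPM in RbpjΔEC 1 to 3. At 27.8 CPM per kb in CTRL it followed Podxl in level among the members. Its log2 fold change was -1.19 ± 0.441 (SE, n = 3 per group, edgeR, adjusted p = 0.279).

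Slc12a1, the sodium-potassium-chloride cotransporter that loop diuretics block, had 133.9, 64.0 and 72.5 CPM in CTRL 1 to 3 and 44.3, 17.2 and 52.3 CPM in RbpjΔEC 1 to 3. Kcnj1, the potassium channel that recycles potassium for this cotransporter, had 23.8, 13.5 and 9.90 CPM in CTRL and 5.96, 2.88 and 7.86 CPM in the libraries labelled RbpjΔEC. Both were highest in CTRL 1 and lowest in RbpjΔEC 2, with log2 fold changes of -1.25 ± 0.56 and -1.50 ± 0.494 (SE, n = 3 per group, edgeR, adjusted p = 0.357 and 0.221). Cldn16, the claudin of magnesium reabsorption, had 2 to 16 counts per library and was not tested.

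In the distal tubule, Hsd11b2 and S100g passed the test. Hsd11b2 inactivates glucocorticoid and so leaves the mineralocorticoid receptor to aldosterone. It had 7.01, 3.27 and 4.33 CPM in CTRL 1 to 3 and 1.09, 1.00 and 1.32 CPM in RbpjΔEC 1 to 3. Every library labelled RbpjΔEC lay below the lowest CTRL library, and the log2 fold change was -2.09 ± 0.304 (SE, n = 3 per group, edgeR, adjusted p = 0.0121), a CTRL mean 4.28 times higher. S100g encodes calbindin-D9k, an intracellular calcium carrier. It had 10.8, 5.24 and 8.12 CPM in CTRL and 2.10, 1.69 and 2.92 CPM in the libraries labelled RbpjΔEC, with a log2 fold change of -1.85 ± 0.289 (SE, n = 3 per group, edgeR, adjusted p = 0.0191). Unlike most proximal members, neither had a library that stood apart within the RbpjΔEC group: RbpjΔEC 3 was 1.26 times the mean of RbpjΔEC 1 and 2 for Hsd11b2 and 1.54 times for S100g.

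Slc12a3, the thiazide-sensitive sodium chloride cotransporter, carried most of the distal sum and behaved differently. It had 139.9, 108.2 and 62.5 CPM in CTRL 1 to 3 and 13.9, 11.5 and 64.4 CPM in RbpjΔEC 1 to 3. RbpjΔEC 3 lay within the CTRL range, and the log2 fold change of -1.79 ± 0.864 (SE, n = 3 per group) did not pass the test (edgeR, adjusted p = 0.388). Calb1, the calcium carrier calbindin-D28k, had 8.90, 9.59 and 8.15 CPM in CTRL and 2.86, 0.858 and 4.99 CPM in the libraries labelled RbpjΔEC, without overlap (log2 fold change -1.62 ± 0.561, SE, n = 3 per group, edgeR, adjusted p = 0.229). Pvalb, the calcium buffer parvalbumin of the early distal convoluted tubule, had 0.574, 0.908 and 0.994 CPM in CTRL and 0.156, 0.0477 and 0.749 CPM in the libraries labelled RbpjΔEC. For Slc12a3 and Pvalb, RbpjΔEC 1 and 2 were low and RbpjΔEC 3 was not. Trpv5, the apical calcium channel, had 5 to 12 counts in the CTRL libraries and 2 to 3 counts in those labelled RbpjΔEC and was not tested. Without RbpjΔEC 3 the distal sum gave a log2 ratio of -2.84, against -1.79 with all libraries.

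The promoters of Slc12a3, which overlapped between the groups, and S100g, which did not, lie on the plus strand (chr8:94328958-94329207) and the minus strand (chrX:162964600-162964849) of GRCm38.p6. Scnn1g, the collecting duct member that passed the test, is set beside them (chr7:121734229-121734478, plus strand). The same conventions hold, with 250 bases before the RefSeq start.
Slc12a3: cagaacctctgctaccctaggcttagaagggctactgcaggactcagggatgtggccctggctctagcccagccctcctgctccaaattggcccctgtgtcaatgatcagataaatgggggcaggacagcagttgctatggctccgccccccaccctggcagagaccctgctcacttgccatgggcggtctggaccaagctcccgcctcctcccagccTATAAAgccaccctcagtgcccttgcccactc
S100g: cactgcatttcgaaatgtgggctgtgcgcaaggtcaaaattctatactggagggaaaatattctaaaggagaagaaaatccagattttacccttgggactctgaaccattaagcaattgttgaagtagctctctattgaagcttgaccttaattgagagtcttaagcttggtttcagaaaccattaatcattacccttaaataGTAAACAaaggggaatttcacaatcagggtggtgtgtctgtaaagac
Scnn1g: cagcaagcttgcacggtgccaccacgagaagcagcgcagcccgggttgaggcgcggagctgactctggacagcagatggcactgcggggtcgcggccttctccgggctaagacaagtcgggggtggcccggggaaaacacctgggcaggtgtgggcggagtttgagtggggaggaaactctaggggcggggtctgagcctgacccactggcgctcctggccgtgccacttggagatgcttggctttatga
The capitals in Slc12a3 are TATAAA from -32 to -27. The capitals in S100g are GTAAACA, the reverse complement of TGTTTAC, a core bound by forkhead factors, from -47 to -41, and a TATAAA began at the annotated first base. TGTTTAC occurs in 3.65% of all promoters and in 2 of the 29 given for members, the other being Slc12a1. TATAAA occurs in 3 of the 5 distal tubule promoters and 2 of the 7 collecting duct promoters. Scnn1g held none of the 5 motifs.

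In the collecting duct all 9 members were lower at an unadjusted p under 0.05, beside 8.62% of all tested genes. The groups did not overlap for 8 of 9, beside 11.6% of all tested genes in that direction, and 1, Scnn1g, passed the adjusted test. The epithelial sodium channel is built of 3 subunits, which were all measured. Scnn1a, its alpha subunit, had 20.1, 10.1 and 9.47 CPM in CTRL 1 to 3 and 6.67, 4.84 and 8.68 CPM in RbpjΔEC 1 to 3. Scnn1b, the beta subunit, had 3.72, 2.07 and 1.73 CPM in CTRL and 0.959, 0.238 and 0.599 CPM in the libraries labelled RbpjΔEC. Scnn1g, the gamma subunit, had 3.37, 1.77 and 1.28 CPM in CTRL and 0.223, 0.238 and 0.399 CPM in the libraries labelled RbpjΔEC, which are 10, 10 and 16 counts. All 3 separated the groups fully.

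The log2 fold changes of the channel subunits were -0.98 ± 0.357 for Scnn1a, -2.05 ± 0.471 for Scnn1b and -2.89 ± 0.451 for Scnn1g (SE, n = 3 per group, edgeR, adjusted p = 0.237, 0.0666 and 0.0154). Per kilobase the order in CTRL was Scnn1a at 3.21, Scnn1b at 0.951 and Scnn1g at 0.716 CPM per kb, and the same order held in the libraries labelled RbpjΔEC at 1.63, 0.227 and 0.0959 CPM per kb. Differences in fold change between the subunits were not tested.

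The water channels Aqp2, which vasopressin moves to the apical membrane, and Aqp3, of the basolateral membrane, are further principal cell genes. Aqp2 had 9.58, 2.68 and 2.23 CPM in CTRL 1 to 3 and 0.736, 0.262 and 1.12 CPM in RbpjΔEC 1 to 3. CTRL 1 was 3.9 times the mean of CTRL 2 and 3, the largest such ratio among the members. The groups did not overlap, and the log2 fold change of -2.77 ± 0.783 (SE, n = 3 per group) did not pass the test (edgeR, adjusted p = 0.159). Aqp3 had 8.48, 3.91 and 2.18 CPM in CTRL and 0.825, 0.906 and 2.37 CPM in the libraries labelled RbpjΔEC, and was the collecting duct member whose groups overlapped (log2 fold change -1.83 ± 0.633, SE, n = 3 per group, edgeR, adjusted p = 0.214).

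The 4 intercalated cell members were lower without overlap, beside 11.6% of all tested genes, and none of the 4 passed the adjusted test. Slc26a4 encodes pendrin, the chloride-bicarbonate exchanger of type B cells. It had 1.80, 2.05 and 1.09 CPM in CTRL 1 to 3 and 0.134, 0.167 and 0.599 CPM in RbpjΔEC 1 to 3 (log2 fold change -2.46 ± 0.537, SE, n = 3 per group, edgeR, adjusted p = 0.0554). Foxi1, the transcription factor of intercalated cells, had 0.823, 0.465 and 0.758 CPM in CTRL and 0.134, 0.143 and 0.225 CPM in the libraries labelled RbpjΔEC (log2 fold change -2.01 ± 0.518, SE, n = 3 per group, edgeR, adjusted p = 0.083). Atp6v1g3, a subunit of the proton pump, averaged 1.32 ± 0.449 CPM in CTRL and 0.282 ± 0.261 CPM in those labelled RbpjΔEC (± SD, n = 3 each) (edgeR, adjusted p = 0.0992). In all of these RbpjΔEC 3 was the highest of its group.

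Slc4a1, the anion exchanger of type A intercalated cells, is also the band 3 protein of red cells. It had 4.89, 3.17 and 3.17 CPM in CTRL 1 to 3 and 0.335, 0.334 and 1.65 CPM in RbpjΔEC 1 to 3 (log2 fold change -2.29 ± 0.605, SE, n = 3 per group, edgeR, adjusted p = 0.118). A list of 9 erythroid genes summed to 7.18 to 8.21 CPM in CTRL and 0.954 to 6.31 CPM in the libraries labelled RbpjΔEC. Of these genes 0 of 6 tested were past the threshold and 2 were lower at an unadjusted p under 0.05, beside 8.62% of all tested genes. Their part in the level of Slc4a1 was not tested. Summed, the 4 intercalated members gave 9.10, 6.49 and 6.58 CPM in CTRL and 0.803, 0.715 and 3.04 CPM in the libraries labelled RbpjΔEC. The 5 principal cell members gave 45.3, 20.6 and 16.9 CPM in CTRL and 9.41, 6.48 and 13.2 CPM in the libraries labelled RbpjΔEC. Neither sum overlapped between the groups.

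The general epithelial members followed the downstream segments. Cdh16, the kidney-specific cadherin, had 25.1, 12.5 and 14.1 CPM in CTRL 1 to 3 and 4.77, 5.46 and 13.9 CPM in RbpjΔEC 1 to 3. Epcam, an epithelial adhesion molecule low in the proximal tubule of adult kidney, had 5.36, 2.73 and 3.98 CPM in CTRL and 1.70, 1.31 and 2.95 CPM in the libraries labelled RbpjΔEC. In both RbpjΔEC 3 reached into the CTRL range, and neither passed the test (edgeR, adjusted p = 0.384 and 0.154).

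**Figure D2:**
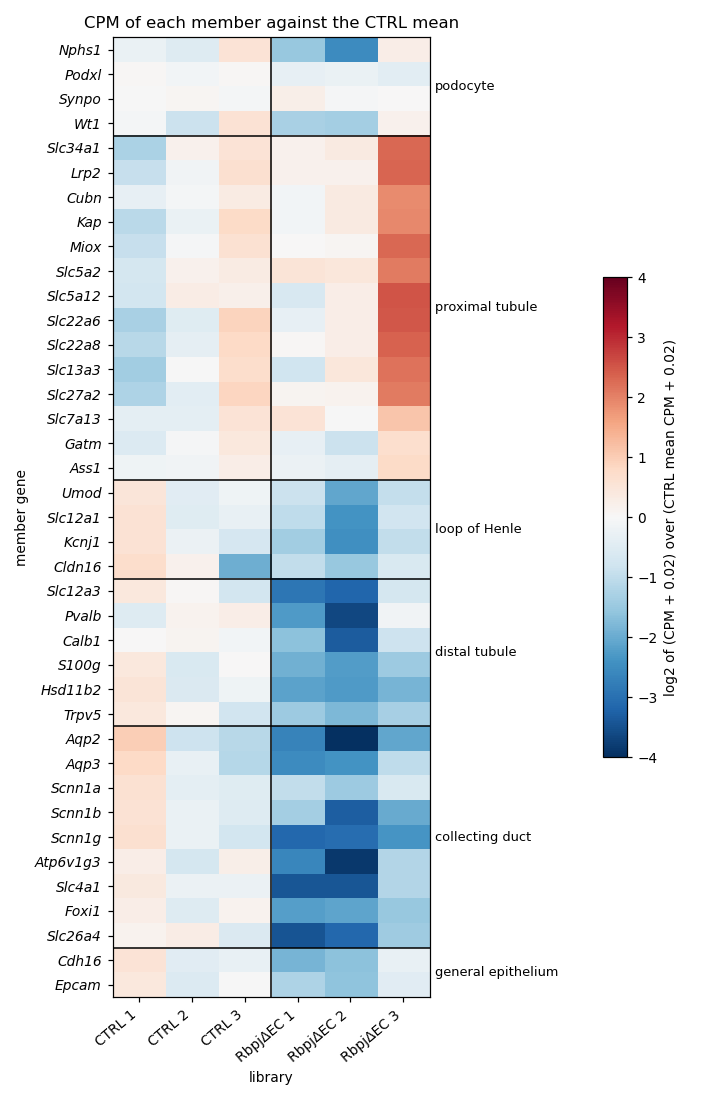
Level of each member (rows, grouped by segment) in each of the 6 libraries (columns), as log2 of CPM over the CTRL mean CPM, with 0.02 CPM added to both. Red is above and blue below the CTRL mean. Most proximal tubule rows are palest outside RbpjΔEC 3 and CTRL 1, while most loop, distal tubule and collecting duct rows are blue in RbpjΔEC 1 and 2 and less so in RbpjΔEC 3.

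Across the libraries, RbpjΔEC 2 was the low end and CTRL 1 the high end for the downstream segments: of the 19 loop, distal and collecting duct members, 16 were highest in CTRL 1 and 14 lowest in RbpjΔEC 2. Dividing the proximal by the downstream sum gave ratios of 0.125, 0.344 and 0.636 for the CTRL libraries, against 0.886, 2.01 and 2.31 for RbpjΔEC 1, 2 and 3. The groups did not overlap in this ratio, which needs no scaling by library size. It divides a sum with a higher RbpjΔEC mean by one with a lower RbpjΔEC mean, so its separation is not independent of those sums. The ratio is compared only between libraries, since its value also depends on gene lengths and on how many genes each sum holds. RbpjΔEC 3, which stood apart in the proximal sum, was close to RbpjΔEC 2 in the ratio. The 35 tubule members together took 0.0399% to 0.0568% of the counts in CTRL and 0.0192% to 0.0656% in the libraries labelled RbpjΔEC. Against the pan-endothelial sum they came to 1.46% to 1.94% in CTRL and to 0.952%, 0.76% and 2.59% in RbpjΔEC 1 to 3. The sum of these 35 genes was thus highest in RbpjΔEC 3, where the proximal members held 441.2 of 648.8 CPM, and lowest in RbpjΔEC 2. Without the proximal members it was highest in CTRL 1, at 516.6 CPM against 207.7 CPM in RbpjΔEC 3.

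**Figure D3:**
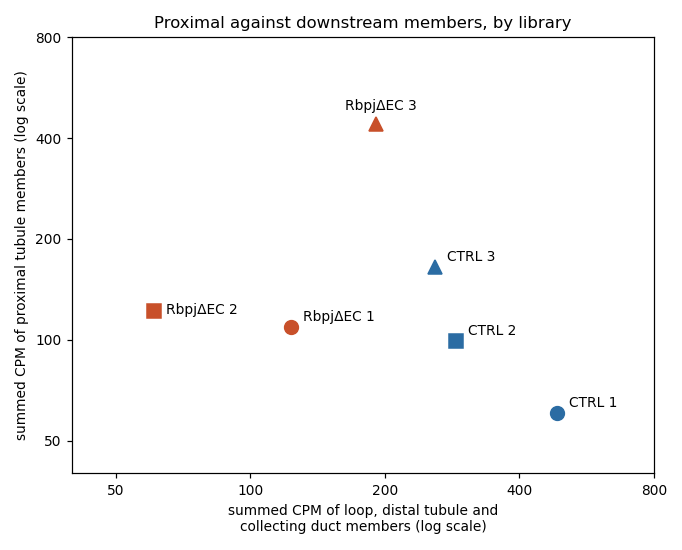
Summed CPM of the 14 proximal tubule members (y axis, log scale) against that of the 19 loop, distal tubule and collecting duct members (x axis, log scale), 1 point per library, with CTRL in blue and RbpjΔEC in orange. The CTRL libraries lie toward the lower right, at ratios of proximal to downstream sum of 0.125 to 0.636, and the libraries labelled RbpjΔEC toward the upper left, at 0.886 to 2.31.

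Calls among the members depended on these libraries. Without RbpjΔEC 3, 11 members were lower past the threshold, beside 1.74% of all genes, and 0 were higher, beside 0.985%. Without RbpjΔEC 3 and CTRL 1 there were again 11 lower, beside 1.17% of all genes, and 0 higher, beside 0.526%. Hsd11b2, S100g and Scnn1g were among the 11 both times, with Pvalb, Atp6v1g3, Slc4a1, Slc26a4 and Cdh16. Without RbpjΔEC 1 or without RbpjΔEC 2, 0 members passed, beside 0.068% and 0.157% of all genes that were lower. Without CTRL 1 only Hsd11b2 passed, beside 0.195% of all genes, and without CTRL 3 only Scnn1g, beside 0.0888%. The DESeq2 Wald test on all libraries called 9 members lower, beside 0.84% of all genes, and 0 higher, beside 0.684%.

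**Figure D4:**
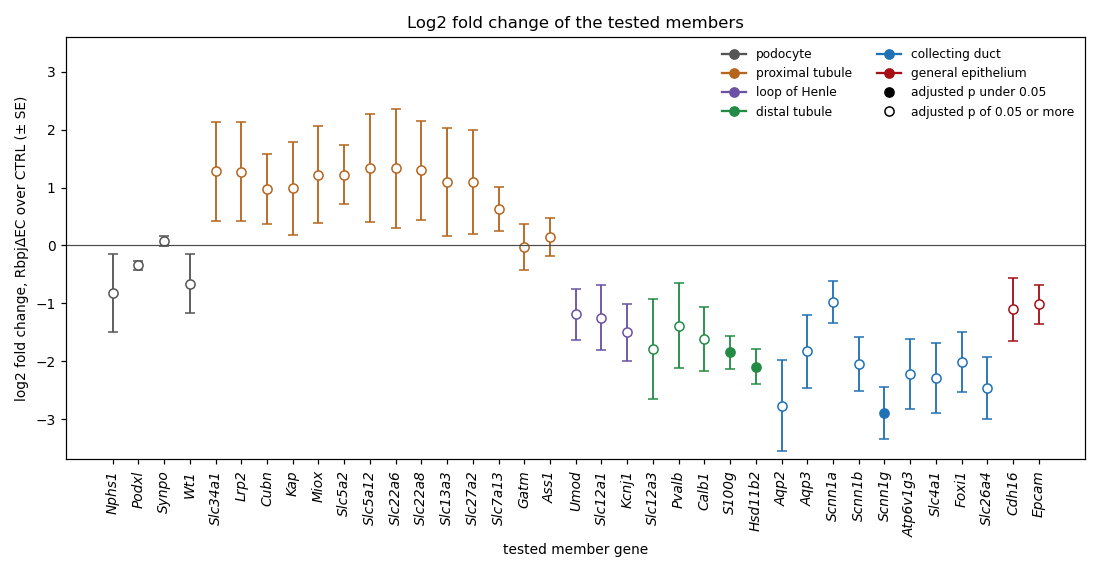
Log2 fold change of the 37 tested members, RbpjΔEC over CTRL (y axis), with whiskers of 1 SE, colored by segment (n = 3 per group). Filled points (S100g, Hsd11b2 and Scnn1g) passed the adjusted threshold of 0.05. All loop, distal tubule, collecting duct and general epithelial members lie below 0, and proximal tubule members lie between -0.03 and 1.34.

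Further genes of the same segments were set beside the members. Of 30 other proximal tubule genes, 26 had a positive log2 fold change with a median of 1.01, and 0 passed the test. An unadjusted p under 0.05 was reached by 3 that were higher (8.88% of all tested genes) and by 1 that was lower (8.62%). RbpjΔEC 3 held the highest level of 27 of the 30. The lower one was Slc5a1, the glucose carrier of the late proximal tubule, at 1.87 CPM in CTRL (log2 fold change -1.17, edgeR, adjusted p = 0.206). Of 11 other tested loop genes all had a negative log2 fold change with a median of -1.15, and 1, the protease inhibitor Wfdc15b, passed the test (log2 fold change -1.37, edgeR, adjusted p = 0.0468).

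All 10 other distal tubule genes had a negative log2 fold change, and 1 of them, the sodium-calcium exchanger Slc8a1, which is also expressed outside the nephron, passed the test (log2 fold change -1.08, edgeR, adjusted p = 0.015). Of 14 other tested collecting duct genes 13 had a negative sign with a median of -1.55 over the 14. The 2 that passed the test were Rhcg, an ammonia channel (log2 fold change -1.91, edgeR, adjusted p = 0.043), and Atp6v1b1, the kidney subunit of the proton pump (log2 fold change -1.49, edgeR, adjusted p = 0.0377). Atp6v1b1 had 8.66, 4.10 and 5.23 CPM in CTRL 1 to 3 and 2.23, 1.69 and 2.45 CPM in RbpjΔEC 1 to 3, again without overlap. Of 13 other tested general epithelial genes 12 had a negative sign, with 0 past the test. At an unadjusted p under 0.05, 5 were lower, beside 8.62% of all tested genes.

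Markers of other non-endothelial cells were read from the same fit. Of 10 tested mural cell genes 3 passed the test as lower, namely Rgs5, Acta2 and Myh11, and the median log2 fold change was -1.03. Kcnj8, a potassium channel subunit of pericytes named after its values were seen, had the opposite sign without overlap (log2 fold change 0.93, edgeR, adjusted p = 0.162). The mural sum was 257.7 to 304.1 CPM in CTRL and 212.9 to 238.1 CPM in the libraries labelled RbpjΔEC, most of it Mylk, without which it was 96.6 to 124.4 and 63.6 to 71.3 CPM. Of 4 tested stromal genes 1 passed as lower, and of 6 tested leukocyte genes 1, Cd68, passed as higher. The median log2 fold change of the 6 was -0.73, with 4 below 0, of which Csf1r and Ptprc had an unadjusted p under 0.05. The T cell genes Cd3d and Cd3e had 0 counts in every library. The stromal sum was 38.6 to 51.8 CPM in CTRL and 26.8 to 32.3 CPM in the libraries labelled RbpjΔEC, most of it Cxcl12, without which it was 4.75 to 7.08 and 1.54 to 2.95 CPM. The leukocyte sum was 15.9 to 19.7 and 24.4 to 29.9 CPM. Without Cd68 the leukocyte sum was 12.7, 3.65 and 7.34 CPM for CTRL 1, 2 and 3, against 2.28, 2.34 and 4.87 CPM for RbpjΔEC 1, 2 and 3. The part of sort purity in the levels of the nephron genes was not tested.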

How the data were processed

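RNA of sorted kidney ECs was measured in 3 CTRL and 3 RbpjΔEC libraries, prepared from 2 ng of total RNA with a stranded kit and 12 PCR cycles per the labels. The authors trimmed the reads with Trim Galore 0.6.4, aligned them with STAR 2.6.1d to GRCm38.p6 with GENCODE M25 and deposited raw counts per gene from featureCounts (Subread 1.6.4). The strand setting of the counting was not given in the sources used here, and exons of Cubn, Nphs1, Slc27a2, Slc34a1, Slc5a2 and Umod overlap genes on the opposite strand, so their counts are uncertain to that extent.

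From the deposited counts, CPM on TMM-scaled libraries and tests came from edgeR 4.0.16 in R 4.3.3 (filterByExpr, glmQLFit with robust estimation, glmQLFTest, two-sided), with Benjamini-Hochberg adjustment over 18438 genes and a threshold of 0.05. An exact permutation test of 3 against 3 cannot go below 0.1 and was not used. Summed levels are descriptions. Exonic lengths came from GENCODE M21, and promoters, given for 28 of the 39 members, from RefSeq. Alternatives were other scalings, filters, DESeq2 1.42.0, a replicate block and leaving libraries out. The members and lists were chosen with earlier results of these data known. All members are named, and of each other list at most the 3 genes with the smallest p and the 3 with the highest CPM, unless marked. Cd3d and Cd3e were named after their values were seen.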

Additional observations from a re-analysis of the deposited data

How the results depend on the processing

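Over all genes the number of calls, 209, became 1436 without a low-count filter, 584 with DESeq2, 344 with the replicate block, 316 without both CTRL 1 and RbpjΔEC 3, and 21 to 700 on leaving out single libraries. The 3 member calls stayed 3, all lower, with RLE scaling, library size alone and a filter of 1 CPM in 3 libraries (beside 0.58%, 0.445% and 0.673% of all genes), and became 13 without a filter (1 higher, Slc5a2, beside 1.87% of all genes, and 12 lower, beside 1.88%), 9 with DESeq2, 9 with the replicate block (3 higher, namely Kap, Slc22a6 and Slc27a2, beside 0.9% of all genes, and 6 lower, beside 0.965%), 11 without both CTRL 1 and RbpjΔEC 3, and 0 to 11 on leaving out single libraries. The adjusted p then ranged from 0.00404 to 0.112 for S100g, from 0.00416 to 0.0742 for Hsd11b2 and from 0.00816 to 0.09 for Scnn1g. The deviations of same-numbered libraries from their group means correlated at 0.0231, 0.00916 and 0.00544, and those of other pairs at -0.0628 to 0.048. Centering on a mean of 3 libraries makes these values offset one another. They therefore cannot decide whether the replicate numbers pair the libraries.

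The log2 ratio of the podocyte sum, -0.32, was -0.10 per pan-endothelial count and -0.75 without Podxl and Synpo. The proximal ratio, 1.05, was 0.10 without RbpjΔEC 3 and -0.19 without both libraries, and the distal ratio, -1.79, was -2.84 without RbpjΔEC 3. On leaving out single libraries the ratios ranged from -0.37 to -0.28 (podocyte), 0.10 to 1.49 (proximal), -1.48 to -0.88 (loop), -2.84 to -1.42 (distal), -2.01 to -1.17 (collecting duct) and -1.68 to -0.73 (general epithelium). Without both libraries the sign turned for Slc34a1 (-0.09), Lrp2 (-0.13), Kap (-0.20), Miox (-0.25), Slc5a12 (-0.38), Slc22a6 (-0.36), Slc22a8 (-0.19), Slc13a3 (-0.44), Slc27a2 (-0.25) and Ass1 (-0.37), and with library size alone for Gatm (0.011). On leaving out single libraries it turned within the ranges -0.014 to 0.13 (Synpo), -0.12 to 1.81 (Slc5a12), -0.051 to 1.63 (Slc13a3), -0.57 to 0.25 (Gatm) and -0.30 to 0.34 (Ass1). The causes were not tested. The settings without both libraries and without Podxl and Synpo were chosen after seeing the data. Cldn16 and Trpv5 had 2 to 16 counts per library, which limits the precision of their levels.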

Other observations

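Of the genes of tubule injury, Clu, which encodes clusterin and is expressed by several kidney cell types, had 30.6, 28.4 and 31.0 CPM in CTRL 1 to 3 and 13.5, 16.0 and 14.1 CPM in RbpjΔEC 1 to 3, lower past the threshold (log2 fold change -1.05 ± 0.098, SE, n = 3 per group, edgeR, adjusted p = 0.000957). It did not share the high values of RbpjΔEC 3 seen in the proximal tubule genes. Lcn2, which encodes lipocalin 2, had 1.6, 0.254 and 0.403 CPM in CTRL 1 to 3, against 0.0223, 0.0715 and 0.225 CPM in RbpjΔEC 1 to 3 (log2 fold change -2.81 ± 0.887, SE, n = 3 per group, edgeR, adjusted p = 0.143). Spp1, which encodes osteopontin, was highest in CTRL 1 at 17.2 CPM and lowest in RbpjΔEC 2 at 4.34 CPM, as most loop, distal tubule and collecting duct members were (edgeR, adjusted p = 0.38). Havcr1, the kidney injury molecule, named here after its values were seen, had 0 counts in 5 libraries and 1 count in RbpjΔEC 3, the library with the highest sum of proximal tubule members, at a depth where 3 counts are 0.0634 to 0.0749 CPM. Of the 5 tested injury genes all had a negative log2 fold change, but these ranged from -2.81 to -0.10. At an unadjusted p under 0.05, 3 were lower, beside 8.62% of all tested genes.

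Among glomerular EC genes, which belong to the sorted cells, all 8 had a negative log2 fold change, with a median of -0.61 and 3 past the threshold, one of them the transcription factor Gata5 (log2 fold change -0.79, edgeR, adjusted p = 0.0154). Their sum was 2154 to 2666 CPM in CTRL and 1486 to 1917 CPM in the libraries labelled RbpjΔEC, without overlap.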
